A study of Mus musculus and Sus scrofa with 30 samples.

Results

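Mitochondrial ribosomal protein genes were followed through adipogenic differentiation of mouse 3T3-L1 cells and porcine dedifferentiated fat cells (DFAT). The genes were all protein-coding rows whose symbol begins with Mrpl or Mrps and a number, whatever the case, a rule on names that uses no measured value, although the set was picked with earlier results of these data known. The mouse table held 78 of them among 24843 genes, 49 named for the large subunit and 29 for the small subunit. The pig table held 64 among 34307 genes, 40 large and 24 small, and 14 of the mouse genes had no row of the same name there. Every one of the 78 and 64 genes had a mean normalized count of at least 10 and was tested, beside 15723 mouse and 14819 pig genes in all. With rosiglitazone 76 of the 78 genes rose in 3T3-L1 cells, where 20.3% of all genes tested rose, with a median log2 fold change of 0.69. In DFAT cells 2 of 64 fell, where 5.02% of all genes tested fell, none rose and the median was 0.01.

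The mitochondrial ribosome (mitoribosome) is a separate translation machine inside the organelle. It makes the few proteins of oxidative phosphorylation that mitochondrial DNA encodes, while all of its proteins are encoded in the nucleus, made in the cytosol and imported. Some of these proteins descend from bacterial ribosomal proteins, and others were added in the mitochondrial lineage. Differentiating adipocytes, which use mitochondria for lipid synthesis and fatty acid oxidation, are known to build more mitochondria.

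Within the mouse set, 30 large-subunit and 16 small-subunit proteins have a bacterial counterpart, and 21 and 10 are particular to mitochondria. The names do not match the structure throughout. Mrps30 and Mrps18a sit in the large subunit, and Mrps36 was named as a ribosomal protein but belongs to the 2-oxoglutarate dehydrogenase complex. The pig set held 24 and 12 proteins with a bacterial counterpart and 18 and 10 without. Subunits are given below by name, as in the symbols, unless a structural class is stated.

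Both cell systems were induced to form adipocytes and harvested on day 5 in 5 groups of 3 libraries. The groups received DMSO as vehicle, dicoumarol, magnolol, both natural compounds together, or rosiglitazone. Dicoumarol is a vitamin K antagonist and an inhibitor of NQO1, magnolol is a biphenol from magnolia bark, and rosiglitazone is a synthetic agonist of PPARγ, the central transcription factor of fat cells. The labels used here give no dose for any of them. 3T3-L1 is an established mouse embryonic fibroblast line, and all its groups shared a medium with 10% serum, IBMX at 37.5 µM, insulin at 0.75 µg/mL and dexamethasone at 75 nM. DFAT cells came from pig subcutaneous fat, and all their groups shared a medium with 2% serum, pantothenate (10 µM), biotin (20 µM), dexamethasone (0.5 µM) and IBMX (12.5 µM), with no insulin listed. The labels do not say whether replicates were separate cultures or how many pigs gave cells, so p-values measure only the spread between these libraries, which may be technical. The 4 treatments of a system were set against the same 3 vehicle libraries, so their differences from vehicle share those values. The 2 tables were normalized separately, and nothing was tested between the systems.

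Depth, estimated from the steps between low values, ran from 22.8 to 30.7 M reads in the mouse libraries and from 44.8 to 70.5 M in the pig libraries. Among 3T3-L1 libraries, vehicle 2 held the lowest value of 51 of the 78 genes. Its summed large-subunit count was 33557, against 38642 or more in every other library. Rosiglitazone 1 held the highest value of 62 genes. Adipocyte markers (Adipoq, Fabp4, Plin1, Cidec, Lpl, Cd36, Pparg, Cebpa) were detected in every library of both systems. Some markers of other cell types were near 0. In 3T3-L1 the median was 0 for Kdr, Cdh1 and Krt18, and in DFAT KDR and CDH1 were at 0 in every library. Others were detected in every library. The leukocyte marker Cd68 ran from 18.5 to 69.2 normalized counts in 3T3-L1 and from 47.9 to 95.3 in DFAT. The muscle marker Des ran from 48.5 to 114 in 3T3-L1 and from 21.1 to 155 in DFAT. PECAM1, an endothelial marker, was detected at 149 to 236 normalized counts in DFAT, and the preadipocyte marker DLK1 did not exceed 0.934 there.

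In vehicle-treated 3T3-L1 cells the genes spanned a wide range of levels per kilobase of annotated exon. The median was 473.5 normalized counts per kilobase, 502 for the large subunit and 392 for the small subunit. Mrps6, the counterpart of bacterial S6, was the most abundant per kilobase at 5558 ± 1315 (SD, n = 3), followed by Mrpl33 at 2420 ± 329 and Mrps21 at 1723 ± 462. Mrpl33 and Mrps21 differed by less than the sum of their SDs, while Mrps6 stood above both by more than its SD. Mrps6 overlaps Slc5a3 on the same strand, and vehicle means were 11102 normalized counts for Slc5a3 and 4702 for Mrps6. Reads of the pair may not be told apart, so the place of Mrps6 at the top is uncertain. At the other end Mrpl23 stood at 42.3 ± 7.95 and Mrpl48 at 44.8 ± 8.59, which differ by less than their spread. Both have a processed pseudogene that can take part of their reads, and with its counts added the Mrpl23 vehicle mean went from 40.9 to 429.6 normalized counts and that of Mrpl48 from 210 to 383, so this low end of the order is uncertain. Transcript lengths were not used for the pig, where vehicle means ran from 158 normalized counts for MRPL57 to 3636 for MRPS6. These extremes were named after their values were seen.

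Rosiglitazone gave the largest mitoribosomal differences from vehicle in 3T3-L1 cells. Of 78 genes, 76 rose and none fell in limma at an adjusted p under 0.05, where 20.3% of all genes tested were called higher and 19.9% lower. The large subunit had 47 of 49 called higher with a median log2 fold change of 0.68 (1.61-fold), and the small subunit 29 of 29 with a median of 0.71 (1.63-fold). The middle of the distribution was narrow, with quartiles of 0.59 and 0.82 over all 78 genes, while the median of all genes tested was 0.00. In 74 of the 78 genes every rosiglitazone library lay above every vehicle library and in none below, against 23.5% and 22.1% of all genes tested.

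**Figure D1:**
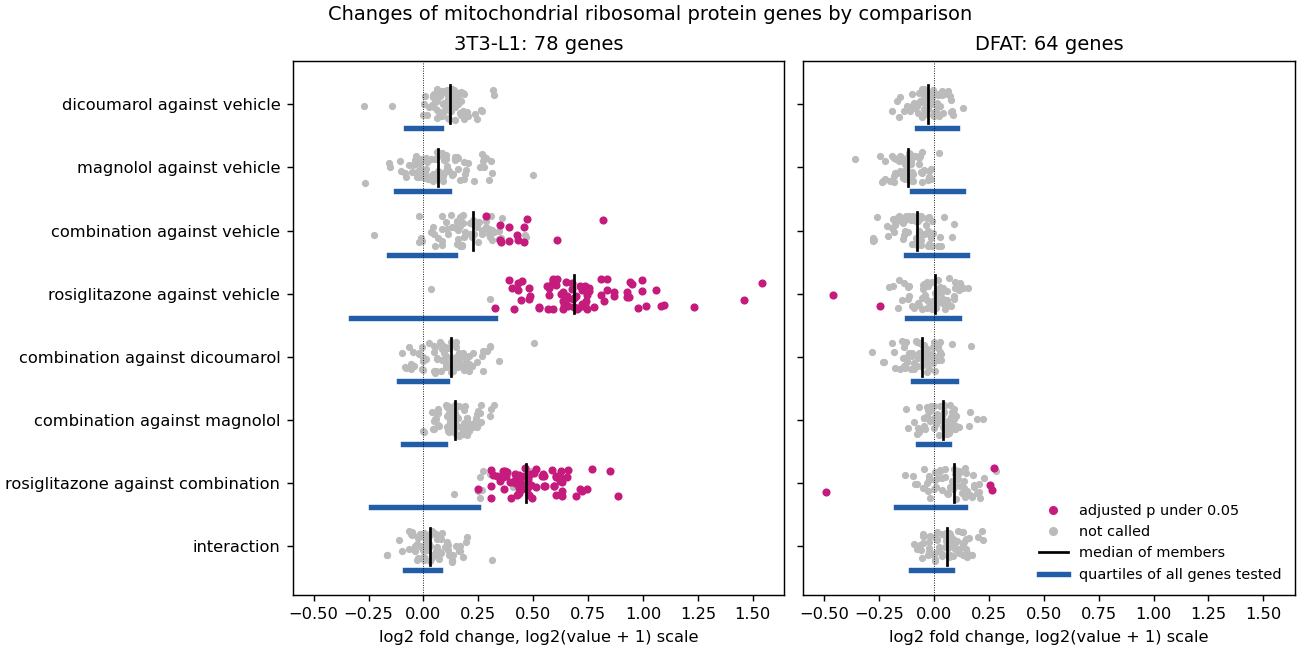
Log2 fold changes, on the log2(normalized count + 1) scale, of the mitoribosomal genes in 8 comparisons, for 3T3-L1 (left, 78 genes) and DFAT cells (right, 64 genes). Each dot is a gene, magenta where the limma adjusted p is under 0.05, the black line is the median and the blue bar spans the quartiles of all genes tested. With rosiglitazone 76 of the 78 genes are magenta in 3T3-L1 and 2 of 64 in DFAT.

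The largest rise was that of Mrpl12 (ENSMUSG00000039640, chromosome 11, 120375439 to 120379891, plus strand, as the deposited table gives it), a stalk protein of the large subunit that also binds the mitochondrial RNA polymerase. Its normalized counts were 1156, 775 and 944 in the vehicle libraries and 2720, 2681 and 2866 with rosiglitazone. All 3 rosiglitazone libraries lay far above the highest vehicle library. The means were 958.5 ± 191 and 2755 ± 97.8 (SD, n = 3), a log2 fold change of 1.54 (SE 0.171, limma adjusted p = 5.4e-06).

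Mrpl20 (chromosome 4, 155887335 to 155894432, plus strand), the counterpart of bacterial L20, came next. Vehicle libraries held 803, 561 and 727 normalized counts and rosiglitazone libraries 2315, 1587 and 1857, with no overlap and the highest value in rosiglitazone 1. The log2 fold change was 1.46 (SE 0.166, limma adjusted p = 6.84e-06). Mrpl51 (chromosome 6, 125168764 to 125173232, plus strand), a large-subunit protein particular to mitochondria, went from 1444, 932 and 1489 to 3854, 2325 and 2901. These libraries were also apart, although the rosiglitazone values spread widely, and the log2 fold change was 1.23 (SE 0.177, limma adjusted p = 6.08e-05). Counting these 3, 7 large-subunit genes and no small-subunit gene at least doubled, and the other 4, named after their values were seen, were Mrpl46 at 1.10, Mrpl15 at 1.08, Mrpl53 at 1.06 and Mrpl55 at 1.01.

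Upstream sequence is printed for these 3 genes and for Mrps22, the small-subunit gene with the largest rise, because they mark the top of a change that ran through both subunits. Each line gives the 250 bases before the RefSeq gene start, 5′ to 3′ on the gene's strand, in build GRCm38.p6. The windows are chr11:120484387-120484636 (plus) for Mrpl12, chr4:155802628-155802877 (plus) for Mrpl20, chr6:125191950-125192199 (plus) for Mrpl51 and chr9:98601680-98601929 (minus) for Mrps22. Capitals mark CACGTG (E-box) in Mrpl20 and CCGGAAG (ETS) in Mrpl51 and Mrps22, and none of the searched motifs occurs in the Mrpl12 stretch.
Mrpl12: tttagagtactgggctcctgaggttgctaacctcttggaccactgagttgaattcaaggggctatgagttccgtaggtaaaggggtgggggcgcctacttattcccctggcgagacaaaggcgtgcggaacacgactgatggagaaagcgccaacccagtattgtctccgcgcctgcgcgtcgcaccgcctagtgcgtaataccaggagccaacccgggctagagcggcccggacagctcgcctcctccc
Mrpl20: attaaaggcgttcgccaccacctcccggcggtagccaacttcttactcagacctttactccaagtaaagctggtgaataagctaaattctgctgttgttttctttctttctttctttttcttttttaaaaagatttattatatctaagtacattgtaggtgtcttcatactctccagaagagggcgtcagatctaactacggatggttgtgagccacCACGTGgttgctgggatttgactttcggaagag
Mrpl51: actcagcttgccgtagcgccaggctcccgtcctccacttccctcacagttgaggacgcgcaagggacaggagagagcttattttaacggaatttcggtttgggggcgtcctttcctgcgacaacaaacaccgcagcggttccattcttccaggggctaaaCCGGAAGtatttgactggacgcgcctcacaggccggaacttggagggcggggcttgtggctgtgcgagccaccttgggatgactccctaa
Mrps22: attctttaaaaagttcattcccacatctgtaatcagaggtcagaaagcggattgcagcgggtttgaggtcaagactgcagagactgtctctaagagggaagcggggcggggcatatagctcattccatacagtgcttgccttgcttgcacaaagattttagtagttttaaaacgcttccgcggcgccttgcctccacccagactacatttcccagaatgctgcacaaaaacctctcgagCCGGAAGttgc

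RefSeq windows of 300 bases, 250 before to 50 after the start, were found for 69 of the 78 genes and searched on both strands. CCGGAAG, the core bound by ETS factors such as GABPA, occurred in 37.7% of the 69, against 20.5% of 9637 tested protein-coding genes and 9.93% of all 27025 genes with a window. AAGATGGC (YY1) occurred in 17.4%, against 5.41% and 3.19%. The NRF1 palindrome occurred in 3 genes, Mrpl9, Mrpl32 and Mrpl39, or 4.35% against 2.42% and 1.07%. CACGTG was found in 7.25% against 11.7% and 8.09%, and a PPAR response element (direct repeat) in none against 0.0415% and 0.0481%. An exact match to this repeat occurred in only 4 of the 9637 tested genes, too few for its absence among 69 to be informative. None of these motifs contains another. Genes with CCGGAAG had a median rosiglitazone log2 fold change of 0.71 (26 genes) and those without it 0.65 (43 genes). With and without AAGATGGC the medians were 0.73 (12 genes) and 0.68 (57 genes). These differences are small beside the range of the genes without CCGGAAG, 0.03 to 1.54, and a match is a description of letters, not of a bound site.

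Large-subunit proteins showed the most even change in Mrpl50 (chromosome 4, 49512596 to 49521093, minus strand), which is particular to mitochondria. Its vehicle libraries held 1073, 1173 and 1065 normalized counts and its rosiglitazone libraries 1992, 1927 and 2115. The spread within each group was small beside the gap, and Mrpl50 had the smallest adjusted p of the set (log2 fold change 0.87, SE 0.075, limma adjusted p = 6.22e-07). Mrpl3, which lies near the peptidyl transferase centre, rose less, by 0.40 (limma adjusted p = 0.00241). Mrpl58, which has peptidyl-tRNA hydrolase activity, rose by 0.52 (0.00292 in the same test), Mrpl36 by 0.66 (0.00177) and Mrpl44, which carries an RNase III-like fold, by 0.72 (0.00015).

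Among small-subunit proteins Mrps22 (chromosome 9, 98470783 to 98483713, minus strand), particular to mitochondria, went from 450, 480 and 503 normalized counts to 1077, 796 and 1006. Every rosiglitazone library was well above every vehicle library, and the log2 fold change was 0.99 (SE 0.104, limma adjusted p = 3.2e-06). Mrps12, a protein of the decoding centre, rose by 0.95 (limma adjusted p = 0.000444), from 218 ± 54.1 to 414 ± 26.6 (SD, n = 3). Mammals carry 3 homologs of bacterial S18, and Mrps18a, Mrps18b and Mrps18c rose by nearly the same amount, 0.72, 0.74 and 0.71. Of these, the classes used here count only Mrps18c as having a bacterial counterpart, and Mrps18a and Mrps18b as particular to mitochondria. Mrps30, small by name but in the large subunit, rose by 0.87 (limma adjusted p = 6.47e-06).

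The structural classes lay close together. Median log2 fold changes with rosiglitazone were 0.67 for large-subunit proteins with a bacterial counterpart, 0.72 for large-subunit proteins particular to mitochondria, 0.68 for small-subunit proteins with a counterpart and 0.74 for those without, with 29 of 30, 20 of 21, 16 of 16 and 10 of 10 called higher. Mrps36, the enzyme-complex member, rose by 0.57 (limma adjusted p = 0.0154). Its libraries overlapped, at 263, 234 and 328 against 477, 295 and 475, and the call was lost without vehicle 2, rosiglitazone 1 or rosiglitazone 3 (adjusted p = 0.0747, 0.0779 and 0.0717).

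**Figure D2:**
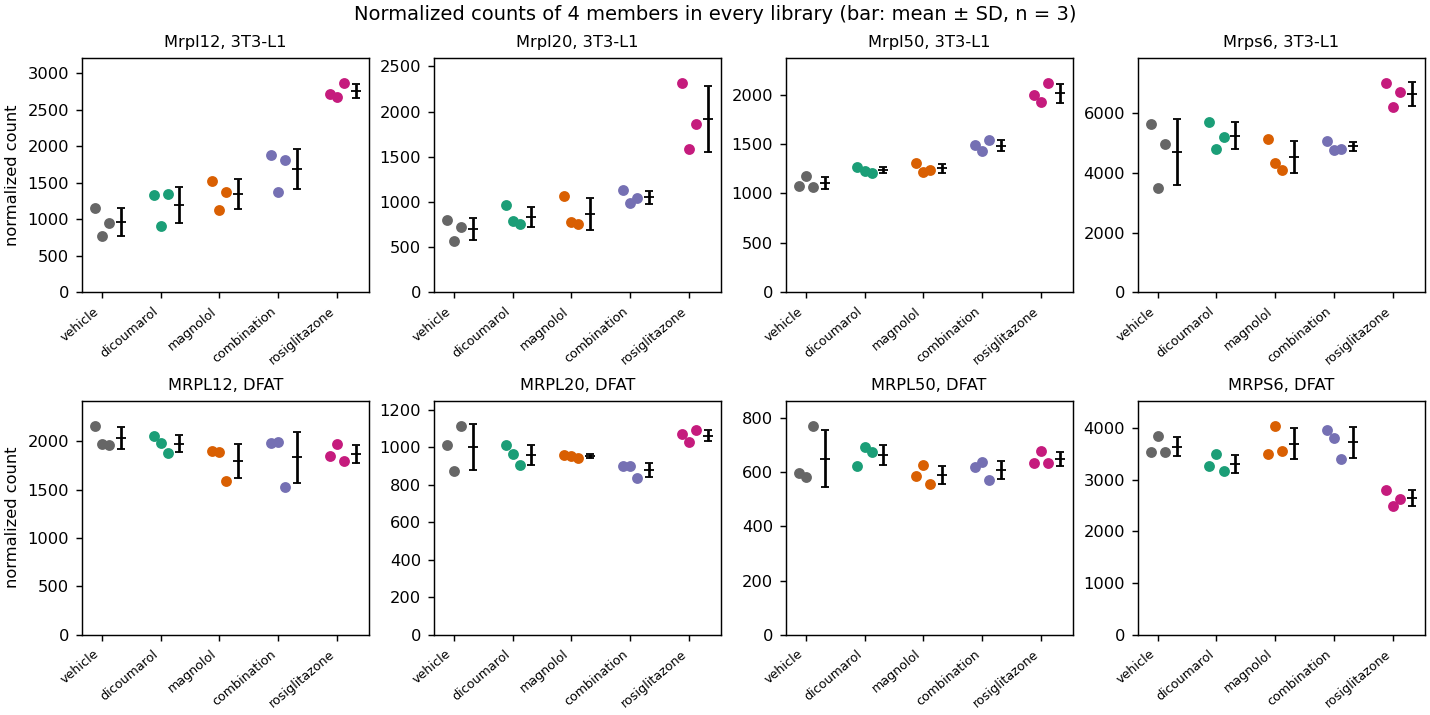
Normalized counts of Mrpl12, Mrpl20, Mrpl50 and Mrps6 in each of 15 3T3-L1 libraries (top) and of their pig namesakes in 15 DFAT libraries (bottom). Dots are libraries and bars are mean ± SD (n = 3). Rosiglitazone libraries lie above vehicle in all 4 upper panels, and in the lower row they lie below vehicle in the MRPS6 panel.

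Mrps6 (chromosome 16, 91855158 to 91909115, plus strand) shares its strand and span with Slc5a3 (91855210 to 91884361), an inositol transporter, so reads of the pair may not be told apart. Mrps6 held 5654, 3479 and 4974 normalized counts with vehicle and 7016, 6203 and 6711 with rosiglitazone. The groups did not overlap, and the log2 fold change was 0.53 (limma adjusted p = 0.00703). Slc5a3 itself stood at 11102 ± 1708 with vehicle and 9320.5 ± 1930 with rosiglitazone (SD, n = 3). In all, 9 mouse genes of the set overlapped another gene on the same strand and 34 one on the opposite strand, in pigs 3 and 22. Whether counting used strand is not stated in the labels, and the part of such neighbours in these values was not tested.

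Mrpl23 and Mrpl48, named after their values were seen, were the genes of the set not called. Mrpl48 held 183, 191 and 257 normalized counts with vehicle and 266, 240 and 264 with rosiglitazone, which overlap (log2 fold change 0.30, SE 0.133, limma adjusted p = 0.0819). Mrpl23 held 38.4, 34.8 and 49.5 against 46.9, 39.3 and 38.6, also overlapping (0.03, SE 0.270, limma adjusted p = 0.936). Both have a processed pseudogene in the table, and Mrpl23-ps1 was counted at 286 to 473 per library against 23.7 to 56.0 for Mrpl23. So do Mrpl27 and Mrps36, which were called higher (limma adjusted p = 0.000956 and 0.0154). Reads can be split between similar copies, but the sequences were not compared. With pseudogene counts added to the parent gene, an alternative chosen after seeing the data, Mrpl48 passed the test (0.32, limma adjusted p = 0.0333) and Mrpl23 did not (0.21, limma adjusted p = 0.288).

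Library medians over the set show how the change was shared among replicates. Relative to the vehicle mean, the large-subunit median log2 value was 0.82, 0.54 and 0.65 in rosiglitazone libraries 1, 2 and 3 and the small-subunit median 0.86, 0.56 and 0.70. All of these exceeded the highest vehicle median, 0.10 for the large and 0.06 for the small subunit. Without vehicle 2 the median fold changes were 0.61 and 0.64, and without rosiglitazone 1 they were 0.60 and 0.63. Summed large-subunit counts were 37632 ± 3530 with vehicle and 63554 ± 5993 with rosiglitazone (SD, n = 3), or 1420 and 2269 per 1 M normalized counts. The ratio of summed small-subunit to large-subunit counts was 0.706 and 0.658.

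**Figure D3:**
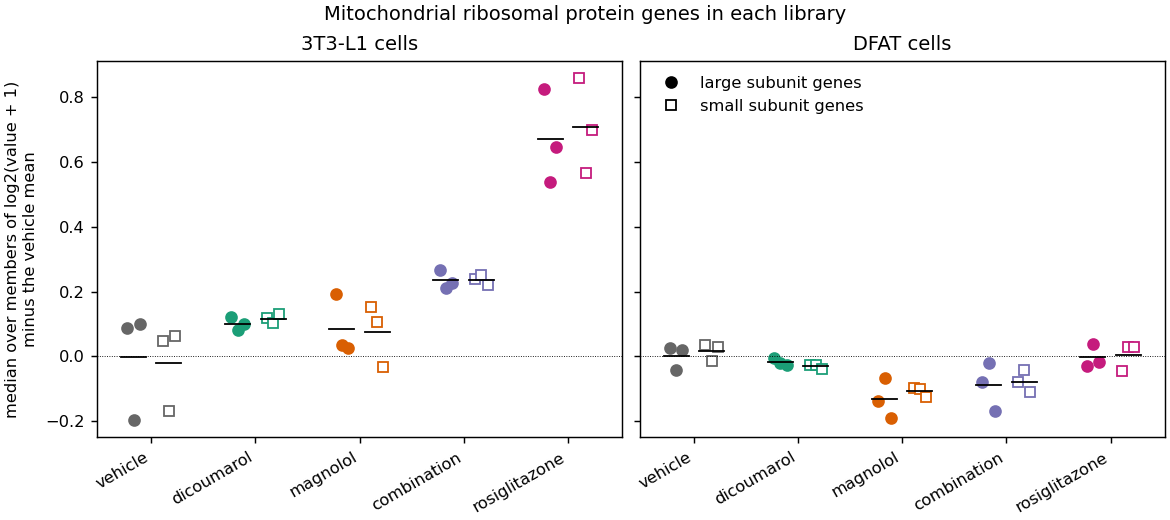
Median over large-subunit (filled circles) and small-subunit genes (open squares) of log2(normalized count + 1) minus the vehicle mean, for each library of 5 groups in 3T3-L1 (left) and DFAT cells (right). Lines are means of 3 libraries. Rosiglitazone libraries reach 0.54 to 0.86 in 3T3-L1 and lie between -0.05 and 0.04 in DFAT, and 1 vehicle library of 3T3-L1, vehicle 2, sits near -0.20.

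Cell identity markers moved with the mitoribosomal genes in 3T3-L1. All 8 adipocyte markers rose with rosiglitazone (median log2 fold change 4.88), and their summed counts were 44205 to 62112 with vehicle and 321410 to 565840 with rosiglitazone. All 6 fibroblast or preadipocyte markers fell (median -0.73), with sums of 290260 to 308690 and 157980 to 212870. The share of counts on mitochondrial genome genes was 5.22% to 7.00% with vehicle and 7.66% to 14.3% with rosiglitazone. In bulk libraries a larger share of adipocytes and more mitoribosomal RNA per cell cannot be told apart, and the part of these markers in the result was not tested.

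The combination of dicoumarol and magnolol gave smaller differences in 3T3-L1 in the same direction. In limma 13 of 78 genes rose and none fell, where 3.86% of all genes tested were called higher and 1.36% lower. The large subunit had 8 of 49 called with a median log2 fold change of 0.22, and the small subunit 5 of 29 with a median of 0.18. Of the 78 genes 73 lay above 0. In 38 every combination library lay above every vehicle library and in none below, as in 11.5% and 9.44% of all genes tested. Adipocyte marker sums in these libraries were 114980 to 180990, between the vehicle and rosiglitazone ranges, fibroblast marker sums were 214760 to 245810, and their part in the result was not tested.

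Mrpl12 again had the largest value. Combination libraries held 1876, 1368 and 1808 normalized counts, all above the vehicle maximum of 1156 and below the rosiglitazone minimum of 2681 (log2 fold change 0.82, SE 0.171, limma adjusted p = 0.00991). Mrpl20 stood at 1127, 985 and 1046 (0.61, limma adjusted p = 0.0439) and was also apart from its vehicle libraries. Mrpl9, the counterpart of bacterial L9, held 1169, 1185 and 1086 with vehicle and 1674, 1468 and 1637 with the combination, with no overlap (0.47, limma adjusted p = 0.00413).

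The other 10 genes, named after their values were seen, were Mrpl1, Mrpl15, Mrpl16, Mrpl37, Mrpl50, Mrps2, Mrps9, Mrps22, Mrps27 and Mrps30, with log2 fold changes of 0.29 to 0.46. Mrps27, a pentatricopeptide repeat protein, was among the tightest. Its libraries held 664, 627 and 654 normalized counts with vehicle and 898, 922 and 851 with the combination, a clear gap (0.46, limma adjusted p = 0.00391). Only Mrpl9, Mrpl50, Mrps2 and Mrps27 were called when any 1 of the 6 libraries was left out. The count fell to 4 without combination 1, 5 without vehicle 2 or combination 3, 6 without vehicle 3 and 8 without combination 2. With the replicate number as a block, 28 genes were called higher, the 13 among them, and 8.03% of all genes tested. Without vehicle 2 the large-subunit median was 0.14. The block is given because same-numbered 3T3-L1 libraries deviated together.

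Neither compound alone gave a call in 3T3-L1 in the fit without the replicate block. Calls with the block are given below for magnolol. With dicoumarol limma called no gene of the set and 0% of all genes tested, and 1 gene of the set had an unadjusted p under 0.05. The median log2 fold change was 0.11 for the large and 0.13 for the small subunit, and 75 of 78 genes lay above 0. In 12 genes the dicoumarol libraries lay wholly above vehicle and in none below (3.15% and 2.68% of all genes tested). Mrpl50, the gene with the smallest p, held 1267, 1230 and 1207 normalized counts, just above its vehicle maximum of 1173 (0.16, limma adjusted p = 1). Mrps27 was next at 0.17 with an adjusted p of 1 in limma. Without vehicle 2 the medians were 0.0089 for the large and 0.063 for the small subunit. Adipocyte marker sums were 62262 to 96533 with dicoumarol and 89035 to 132970 with magnolol, all above the vehicle range, which reached 62112. Limma called none of the 8 adipocyte markers with dicoumarol, where 6 had an unadjusted p under 0.05. With magnolol it called 5 of the 8 higher, and the part of these markers was not tested.

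With magnolol limma called none of the 78 genes, where 1.07% of all genes tested were called higher and 0.153% lower, and 11 had an unadjusted p under 0.05. Medians were 0.07 and 0.06, and without vehicle 2 they were -0.054 and -0.027. Libraries lay wholly above vehicle in 16 genes and below in 1 (8.52% and 6.86% of all genes tested). Mrps2, a small-subunit protein with a bacterial counterpart, held 1270, 1253 and 1305 normalized counts with vehicle and 1521, 1583 and 1503 with magnolol. These libraries did not overlap, yet the adjusted p was 0.13 in limma (log2 fold change 0.27). Mrpl9 stood at 1468, 1283 and 1481 (0.30, limma adjusted p = 0.151). With the replicate block 4 genes were called higher, Mrpl12, Mrpl15, Mrps2 and Mrpl9 (limma adjusted p = 0.00474, 0.0238, 0.0336 and 0.045), and so were 3.52% of all genes tested.

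The combination was also set against each compound in 3T3-L1. Against dicoumarol limma called none of the 78 genes and 0.0254% of all genes tested, with 12 at an unadjusted p under 0.05 and a median of 0.12. The smallest p values were those of Mrps2 (0.27, limma adjusted p = 0.207) and Mrpl50 (0.26, limma adjusted p = 0.223), and the replicate block called 5 genes higher beside 2.49% of all genes tested. Against magnolol limma called none, as among all genes tested (0%), with 7 at an unadjusted p under 0.05 and a median of 0.15. Mrpl50 at 0.24 and Mrps7 at 0.26 had adjusted p values of 1 in limma.

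The interaction term asks whether the combination departs from the sum of both compounds' log2 effects. Limma called no gene of the set in 3T3-L1, 0% of all genes tested, and none reached an unadjusted p under 0.05. The median of the set was 0.03, and the smallest p values were those of Mrpl43 (0.17) and Mrpl42 (0.20), with limma adjusted p values of 1. The median SE of a single gene was 0.161 for this term against 0.114 for a comparison of 2 groups, so a departure as small as the median of the set was not detectable in a single gene.

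Rosiglitazone exceeded the combination in most mitoribosomal genes of 3T3-L1. Limma called 67 of 78 higher and none lower, where 9.53% of all genes tested were called higher and 8.78% lower, and the median log2 difference was 0.47. Mrpl15, the counterpart of bacterial L15, held 1275, 1130 and 1325 normalized counts with the combination and 2045, 1726 and 1987 with rosiglitazone. The libraries were apart, and the log2 difference was 0.63 (limma adjusted p = 0.00115). Mrpl53, particular to mitochondria, differed by 0.71 (limma adjusted p = 0.00132). Without rosiglitazone 1 the count was 38. Adipocyte marker sums differed in the same direction, as given above, and their part was not tested.

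In DFAT cells rosiglitazone left the set near the vehicle level. Limma called 2 of 64 genes lower and none higher, where 5.02% of all genes tested were called lower and 5.8% higher. The median log2 fold change was 0.00 for the large and 0.01 for the small subunit, and 33 genes lay above 0 and 31 below. An unadjusted p under 0.05 was reached by 5 genes, and libraries lay wholly above vehicle in 3 and below in 7 (10.5% and 10.9% of all genes tested). The highest upper bound of any gene's 95% confidence interval was 0.365, so a 1.5-fold rise lay outside the interval of all 64 genes. The median SE was 0.0786, below the 0.114 of the mouse set. All 8 adipocyte markers rose in these libraries too (median 3.27), from summed counts of 18489 to 21420 with vehicle to 76446 to 83524 with rosiglitazone. The rosiglitazone libraries held 56.9 to 58.8 M normalized counts in DFAT and 27.4 to 28.4 M in 3T3-L1. Adipocyte markers were thus a smaller share of counts in DFAT, and how far each system differentiated was not compared. The DFAT share on mitochondrial genome genes was 9.58% to 10.2% with vehicle and 6.85% to 10.8% with rosiglitazone. All 4 fibroblast markers tested lay below vehicle (median -0.29), all 4 at an unadjusted p under 0.05 in limma, and 1 was called lower. Fibroblast marker sums were 1821000 to 1962900 with vehicle and 1452500 to 1609900 with rosiglitazone. The part of these markers was not tested.

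The genes with the largest mouse rises show the difference in level. MRPL12 held 2159, 1972 and 1955 normalized counts with vehicle and 1843, 1967 and 1792 with rosiglitazone, which overlap (log2 fold change -0.12, limma adjusted p = 0.54). MRPL20 held 1012, 871 and 1115 against 1069, 1029 and 1091, with the rosiglitazone values inside the vehicle range (0.10, limma adjusted p = 0.571). MRPL51 stood at -0.12, MRPL50 at 0.01 and MRPS22 at -0.04, none called. Of the other genes fixed by name, MRPL3, MRPL44, MRPL58, MRPS12, MRPS18A, MRPS18B and MRPS30 lay between -0.05 and 0.09 and MRPL36 at -0.16, again without a call.

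MRPS6 (ENSSSCG00000026981, chromosome 13, 197738890 to 197756785, plus strand) was the clearest pig gene. It held 3525, 3849 and 3534 normalized counts with vehicle and 2799, 2491 and 2632 with rosiglitazone. All 3 rosiglitazone libraries lay below every other DFAT library, where values ran from 3161 to 4041. The means were 3636 ± 184 and 2640.5 ± 154 (SD, n = 3), and MRPS6 fell by 0.46 on the log2 scale (SE 0.074, limma adjusted p = 0.000358). No other listed pig gene overlapped it. However, no pig gene was listed under the name SLC5A3, the neighbour that shares the mouse Mrps6 span. Any part of its reads in the MRPS6 values was not tested.

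MRPS18C (chromosome 8, 135015413 to 135026064, minus strand), one of the S18 homologs, was the second. It went from 876, 914 and 956 to 730, 815 and 767 normalized counts, apart by a small margin, and fell by 0.25 (SE 0.076, limma adjusted p = 0.0459). The call was lost without vehicle 1, 2 or 3 or rosiglitazone 1 or 3 (limma adjusted p = 0.0631 to 0.146), which leaves 1 gene called. It was also lost without the filter on low values and in a fit of the compared groups alone. ABRAXAS1 lies opposite it on the other strand. MRPS9 had the highest value of the set at 0.16 (limma adjusted p = 0.162).

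**Figure D4:**
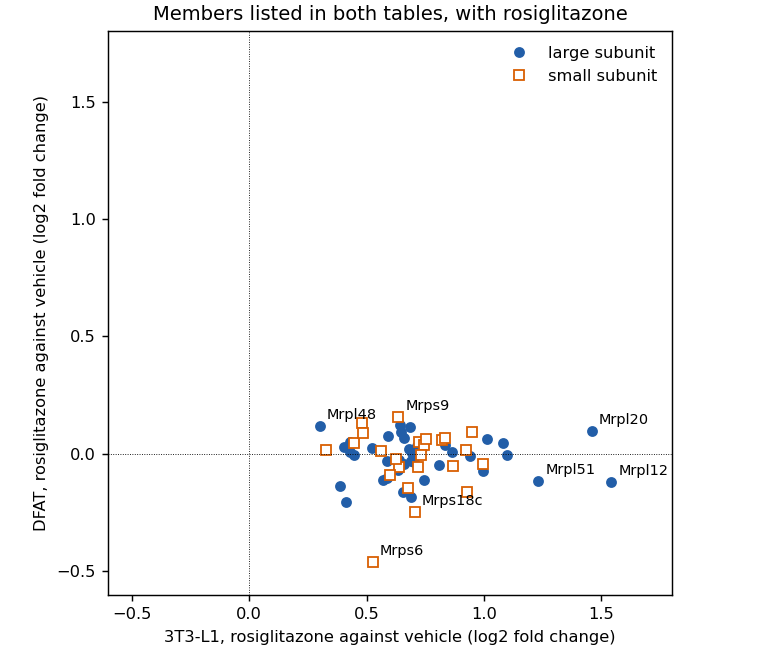
Log2 fold change with rosiglitazone of each gene listed in both tables, 3T3-L1 on the horizontal and DFAT on the vertical axis, with large-subunit genes as filled circles and small-subunit genes as open squares. All 64 points lie right of 0. Mrps6 at 0.53 and -0.46 and Mrps18c at 0.71 and -0.25 lie lowest.

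Magnolol placed most of the pig set slightly below vehicle. Limma called none of 64 genes, where 2.96% of all genes tested were called higher and 1.27% lower, and 13 had an unadjusted p under 0.05. The median log2 fold change was -0.13 for the large and -0.11 for the small subunit, 63 of 64 genes lay below 0, and MRPS6 at 0.02 was the exception. In 20 genes every magnolol library lay below every vehicle library and in none above, against 11% and 10.9% of all genes tested. MRPL34, the counterpart of bacterial L34, had the smallest p. It held 1868, 1776 and 1782 normalized counts with vehicle and 1524, 1686 and 1578 with magnolol, without overlap (-0.18, limma adjusted p = 0.1). MRPS31 stood at -0.22 (limma adjusted p = 0.107). Cytosolic ribosomal protein genes had a median of -0.21 in the same comparison, with all 63 tested below 0 and 2 called lower, and adipocyte marker sums were 36161 to 44592. Fibroblast marker sums were 2916800 to 3424000, above the 1821000 to 1962900 of vehicle, with 2 of 4 called higher and 1 lower. The part of any of these in the result was not tested.

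The combination in DFAT cells gave none called of 64, where 6.11% of all genes tested were called higher and 4.06% lower, and limma gave 9 genes an unadjusted p under 0.05. Medians were -0.08 for the large and -0.07 for the small subunit, the latter -0.12 without combination 2. Libraries lay wholly above vehicle in 1 gene and below in 15 (14.2% and 14.7% of all genes tested). MRPL18, a large-subunit protein with a bacterial counterpart, held 906, 881 and 894 normalized counts with vehicle and 793, 833 and 691 with the combination, all lower (-0.21, limma adjusted p = 0.0791). It passed without combination 2 (limma adjusted p = 0.0481), and 2 genes passed without vehicle 2. MRPS10 was next at -0.18 (limma adjusted p = 0.133). Adipocyte marker sums were 56913 to 64213 with the combination, with all 8 called higher, and fibroblast marker sums 2952900 to 3416800, with 2 of 4 called higher and 1 lower. DES, a muscle marker, was low but also rose (1.81, limma adjusted p = 0.00463), with 124 to 155 summed muscle marker counts against at most 68.2 with vehicle. The part of these markers was not tested.

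Dicoumarol alone gave none called in DFAT cells, where 0.911% of all genes tested were called higher and 1.03% lower, and 2 genes had an unadjusted p under 0.05 in limma. Medians were -0.02 and -0.03, and libraries lay wholly above vehicle in 2 genes and below in 5 (9.8% and 9.47% of all genes tested). MRPS14 held 502, 541 and 572 normalized counts with vehicle and 447.5, 487 and 480 with dicoumarol, lower in each library (-0.19, limma adjusted p = 0.394). MRPL18 stood at -0.17 (limma adjusted p = 0.425). The large-subunit median was 0.00015 without vehicle 1 and -0.037 without vehicle 2, and the small-subunit median -0.015 without vehicle 3. Fibroblast marker sums, 2582000 to 2716800, and adipocyte marker sums, 23442 to 25088, lay above the vehicle ranges, and their part was not tested.

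Between treatments in DFAT cells the combination gave no call against dicoumarol (2.35% of all genes tested called, 3 of the set at an unadjusted p under 0.05 in limma). MRPS6 at 0.17 and MRPL16 at -0.15 had the smallest p (limma adjusted p = 0.34 and 0.344). Against magnolol there was again none (0.621% of all genes tested, 2 of the set at an unadjusted p under 0.05 in limma), with MRPS31 at 0.20 and MRPL46 at 0.22 (limma adjusted p = 0.454 and 0.518). The interaction gave none of 64 in limma, with 0 at an unadjusted p under 0.05 and 0.081% of all genes tested called, and MRPL46 at 0.22 and MRPL13 at 0.20 had adjusted p values of 1.

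Rosiglitazone against the combination gave 4 calls in DFAT cells, 3 higher and 1 lower, where limma called 8.24% of all genes tested higher and 8.79% lower. MRPS6 was lower with rosiglitazone by 0.49 on the log2 scale, a log2 difference of -0.49 (limma adjusted p = 0.000159), against combination libraries of 3964, 3808 and 3389. MRPL17, which lies near the exit of the peptide tunnel, held 2546, 2589 and 2603 normalized counts with the combination and 3027, 3110 and 3157 with rosiglitazone. Both groups were tight and apart, and the difference was 0.26 (limma adjusted p = 0.00607). MRPL20 at 0.28 (limma adjusted p = 0.0252) and MRPL49 at 0.25 (0.0431), named after their values were seen, were the others. MRPL49 libraries overlapped, 1853, 2156 and 1808 against 2118, 2672 and 2162. With the replicate block, which applies to these 2 groups, 8 genes were called higher and 1 lower, where it called 12.4% of all genes tested higher and 12.6% lower, so 8 of 64 is near that share.

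Set side by side, the 64 genes listed in both tables gave different counts. With rosiglitazone 61 were called higher in 3T3-L1 and not called in DFAT, 2 (Mrps6 and Mrps18c) were called higher in 3T3-L1 and lower in DFAT, and none was called in the same direction in both. With the combination 11 were called in 3T3-L1 and none in DFAT. The species, the medium, the serum and insulin differ between the systems together and cannot be told apart, and the difference between the systems was not tested.

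Other genes of mitochondrial protein synthesis were followed from lists by name, each count to be read against the 20.3% of all genes tested that rose and the 19.9% that fell with rosiglitazone in 3T3-L1. With rosiglitazone in 3T3-L1, all 5 mitoribosomal proteins that carry other names rose (median log2 fold change 0.47), among them Ptcd3 (1.01, limma adjusted p = 1.85e-06), Dap3 (0.46, 0.000152) and Gadd45gip1 (0.70, 0.00104). Of the translation factors 10 of 17 rose and none fell (median 0.32). The elongation factors Gfm1 (0.92, limma adjusted p = 1.23e-06), Tsfm (0.95, 2.99e-06) and Tufm (0.98, 8.46e-05) had the smallest p values of that list.

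Of 20 genes for mitochondrial aminoacyl-tRNA synthetases and their amidotransferase partners, which charge mitochondrial tRNAs, 16 rose and 1 fell with rosiglitazone in 3T3-L1 (median 0.49). Yars2 (0.86, limma adjusted p = 1.51e-05), Mars2 (1.08, 0.00014) and Aars2 (0.68, 0.000313) led by p, and Wars2, named after its value was seen, had a log2 fold change of -0.52 (0.0123 in the same test). Assembly and rRNA modification factors rose in 15 of 27 and fell in none (median 0.37). Rpusd3, a pseudouridine synthase, had the largest change among the genes of protein synthesis at 2.34 (limma adjusted p = 3.67e-07), followed by p by Mrm3, a ribose methyltransferase (1.07, 1.71e-05), and the GTPase Noa1 (0.74, 9.29e-05). Mitochondrial transcription genes rose in 4 of 6 (median 0.52), with Tfb2m at 0.70, Tefm at 0.65 and Polrmt at 0.58. Cytosolic ribosomal proteins had 21 of 82 called higher, near the 20.3% of all genes tested, and none called lower, against 19.9% (median 0.24).

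In DFAT cells the same lists gave few calls with rosiglitazone, which raised 5.8% and lowered 5.02% of all genes tested. None of 5 other-named mitoribosomal proteins, 17 translation factors, 5 transcription genes or 63 cytosolic ribosomal proteins was called in limma, with medians of -0.04, -0.03, -0.06 and -0.13. At an unadjusted p under 0.05 there were 1, 0, 1 and 13. One synthetase, IARS2, fell by 0.16 (limma adjusted p = 0.0485) out of 19. Of 25 assembly and modification factors 2 rose, RPUSD3 (0.48, limma adjusted p = 0.00129) and MRM2 (0.34, 0.00262), a share near that of all genes. With the combination 23 of 63 cytosolic ribosomal proteins fell in DFAT (median -0.23), against 4.06% of all genes tested, and limma called none of 82 in 3T3-L1 (median -0.02), 1 at an unadjusted p under 0.05.

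**Figure D5:**
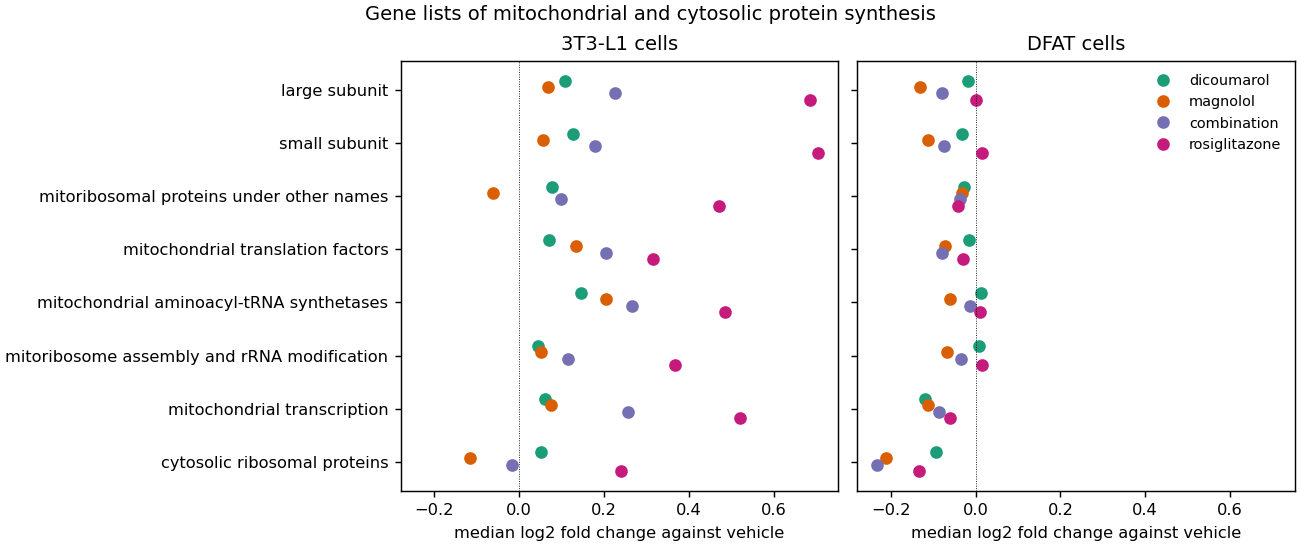
Median log2 fold change against vehicle of the large and small subunit genes and of 6 other lists in 3T3-L1 (left) and DFAT cells (right), 1 dot per treatment. Rosiglitazone medians in 3T3-L1 run from 0.24 for cytosolic ribosomal proteins to 0.71 for the small subunit, and in DFAT from -0.13 to 0.01.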

How the data were processed

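Poly(A) RNA libraries with strand marking were sequenced from 15 3T3-L1 and 15 DFAT samples, per the labels' protocols. The authors deposited 1 table per species of signal values, which are normalized counts from DESeq2 (counts over a size factor for each library), per the labels' descriptions. STAR, DESeq2, bcl2fastq 2.19.1.403 and GRCm38 are named in the submitters' processing notes, and the pig build is not given in the sources used here. All 78 mouse genes of the set had the same span as in the GENCODE M21 annotation of GRCm38 but only 1 the same start, so gene coordinates are printed as deposited, with the end as the listed stop less 1, and their build is not given in the sources used here. Promoter sequences are RefSeq's in GRCm38.p6.

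Whole reads were recovered only in part, so no count test was run. Values were tested as log2(normalized count + 1) for genes with a mean of at least 10, with limma 3.58.1 in R 4.3.3, all 5 groups of a system in 1 model with a trended variance prior, two-sided, and Benjamini-Hochberg adjustment over all genes tested (adjusted p under 0.05). The fold changes of low genes are understated on this scale. Motif searches and summaries used Python 3.11.15 with pandas 2.3.3 and numpy 2.4.6, and figures matplotlib 3.10.9. The test was checked on simulated data with independent noise and with changes larger than most reported here. That check does not cover smaller changes or libraries that deviate together. Alternatives were log2(normalized count + 5), no filter, quantile normalization, only the compared groups, a replicate block and leaving out each library.

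Replicate numbers are in the sample titles. In 3T3-L1 all 30 same-numbered pairs of libraries had correlated deviations from the group means (r = 0.106 to 0.462), so the numbers were taken to pair the libraries. In DFAT such pairs had r = -0.306 to 0.345, and r was 0.105 or more throughout only among magnolol, combination and rosiglitazone libraries.

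The genes and lists were chosen with earlier results of these data known. Named for each comparison with vehicle were the 3 largest called rises and falls, fewer where fewer passed, and where none passed the 2 smallest p. The 2 smallest p were named for the other comparisons. Named by choice were Mrpl3, Mrpl12, Mrpl36, Mrpl44, Mrpl58, Mrps6, Mrps12, Mrps18a, Mrps18b, Mrps18c, Mrps30 and Mrps36, and up to 3 genes of each other list with the smallest adjusted p with rosiglitazone.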

Additional observations from a re-analysis of the deposited data

Results flagged for a closer look

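Some genes had every treated library above every control library in 3T3-L1 and every one below in DFAT. The difference between the systems was not tested, and most of these values were of comparisons in which the gene was called in neither system. With rosiglitazone 23.5% of all genes tested lay wholly above vehicle in 3T3-L1 and 10.9% wholly below in DFAT. The same shares were 11.5% and 14.7% with the combination, 8.52% and 11% with magnolol, and 3.15% and 9.47% with dicoumarol. Nearly every gene of the set lay wholly above with rosiglitazone in 3T3-L1, so most genes wholly below in DFAT join this list. How many would be listed without a link between the systems was not tested. Values are log2 fold changes, DFAT first and 3T3-L1 second.

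With rosiglitazone against vehicle Mrps6 stood at -0.46 and 0.53 and Mrps18c at -0.25 and 0.71, the 2 called in both systems. Mrpl18 stood at -0.072 and 1.00, Mrpl36 at -0.16 and 0.66, Mrpl37 at -0.11 and 0.74, Mrpl47 at -0.18 and 0.69, and Mrps5 at -0.14 and 0.68, called in 3T3-L1 alone. Against the combination, rosiglitazone gave Mrps6 -0.49 and 0.44, again called in both.

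With the combination against vehicle none of these genes was called in either system. They were Mrpl3 at -0.073 and 0.27, Mrpl17 at -0.15 and 0.31, Mrpl18 at -0.21 and 0.30, Mrpl45 at -0.19 and 0.25, Mrps5 at -0.13 and 0.31, and Mrps18a at -0.13 and 0.30. With magnolol, again without a call, Mrpl3 stood at -0.17 and 0.20, Mrpl15 at -0.16 and 0.27, Mrpl46 at -0.14 and 0.27, and Mrps5 at -0.11 and 0.13. With dicoumarol Mrps5 stood at -0.12 and 0.17. Mrps5, a small-subunit protein with a bacterial counterpart, is thus on the list for all 4 treatments, which share their vehicle libraries. For the combination against dicoumarol the genes were Mrpl16 at -0.15 and 0.21, Mrpl17 at -0.079 and 0.22, and Mrpl20 at -0.13 and 0.34, none called.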

How the results depend on the processing

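The 76 calls with rosiglitazone in 3T3-L1 ranged from 72 to 76 over the fits without 1 library and were 75 without a filter or with quantile normalization, 72 with only the compared groups, 76 with the replicate block and 77 with pseudogene counts added, an alternative chosen after seeing the data. The 13 calls with the combination in 3T3-L1 were 8 without a filter, 8 with quantile normalization, 7 with only the compared groups, 28 with the replicate block and 4 to 10 without 1 library. For rosiglitazone against the combination in 3T3-L1, 67 calls became 38 without rosiglitazone 1, and leaving out other libraries gave up to 69. In DFAT the 2 calls with rosiglitazone were 1 without a filter, 1 with only the compared groups, and 1 to 2 without 1 library. For rosiglitazone against the combination the 4 calls were 2 with only the compared groups and 2 to 4 without 1 library, with 2 without combination 3. With the combination against vehicle in DFAT, 0 to 2 were called without 1 library. The cause of these shifts was not tested, beyond that such fits hold fewer samples or more genes.

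The replicate block raised calls in 3T3-L1 from 0 to 4 with magnolol and from 0 to 5 for the combination against dicoumarol. In DFAT it gave 9 for rosiglitazone against the combination. For vehicle comparisons in DFAT the block gave 1 lower with magnolol (MRPL34, beside 3.55% of all genes tested) and 2 lower with the combination (MRPL18 and MRPL28, beside 8.31%). Pairing there is uncertain, with r = 0.00472 to 0.209 for same-numbered vehicle and magnolol libraries and 0.0331 to 0.167 for vehicle and combination. Of the counts of calls, 168 alternatives kept within 1.5 times, 8 were higher, 18 were lower and none changed direction. Comparisons without a call that stayed without one were scored as kept, and most comparisons had no call. The tally therefore says little about comparisons with calls, whose shifts are given above, and direction could change only there. Precision is limited by 3 libraries per group, with a median SE of 0.114 in 3T3-L1 and 0.0786 in DFAT, by depth known only as an estimate, and by genes whose reads may be shared with pseudogenes or overlapping genes. In the dicoumarol, magnolol and combination comparisons of 3T3-L1 with vehicle the medians of the set depend on vehicle 2, as given above.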
